A study of Bos taurus with 17 samples.

Results

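The genes described here are 33 genes of fatty acid oxidation and of ketone body metabolism, followed in cow cumulus cells on Agilent arrays. A probe was taken for a member when its gene name on the array is the symbol of the member, or when the array gives a LOC number and the description names the gene. The same was done for probes named by an MGC number (1 probe) or a GenBank accession (5 probes). All 33 members had a probe, with 39 probes in all among the 21475 probes of the array, and 5 members had several probes. HADH is given by probe A_73_100635 and EHHADH by probe A_73_118771. In the current gene table, the gene ID or accession of 29 of the 39 probes has the symbol of the member and that of 1 probe has another symbol. That probe is the only one for DECR2, and its identity is therefore uncertain. For the other probes no symbol was found in this way, and their names rest on the array alone.

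Mitochondrial fatty acid oxidation starts with acyl-CoA synthetases (ACSL genes), which join a fatty acid to coenzyme A. The carnitine shuttle (CPT1A, CPT1B, SLC25A20, CPT2) then moves the acyl group across the inner mitochondrial membrane. In the matrix, each round of shortening uses an acyl-CoA dehydrogenase, a hydratase, a hydroxyacyl-CoA dehydrogenase and a thiolase, and the electrons pass through the electron transfer flavoprotein. Double bonds need auxiliary enzymes, and peroxisomes hold a parallel set of enzymes. Ketone bodies are made from acetyl-CoA in liver mitochondria and can be used as fuel in other tissues, where BDH1 and OXCT1 act in turn. Oocytes and the cumulus cells around them use fatty acids as a source of energy, and CPT1 is known as a control point of the pathway.

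Cumulus cells enclose the oocyte in the follicle and were separated from cumulus-oocyte complexes. NC1 cells surrounded immature prophase I oocytes of 6 prepubertal calves aged 3 to 6 months, from follicles of 3 to 6 mm. C1 cells surrounded immature prophase I oocytes of 6 adult cows of different ages. C2 cells surrounded in vivo matured metaphase II oocytes of 5 non-lactating Holstein cows, aged 3 to 5 years, after superovulation with FSH and LH. NC1 and C1 complexes were aspirated after slaughter and had a compact cumulus, whereas C2 complexes had an expanded cumulus and came from follicles of more than 8 mm by ovum pick up, done 60 h after prostaglandin F2α. The labels call NC1 oocytes incompetent, C1 oocytes competent and C2 oocytes fully competent for development. NC1 and C1 differ in the age of the animals as well as in the stage, and C2 differs from both in hormone treatment, follicle size and collection, so that these cannot be told apart. The methods describe individual animals, while the labels number the libraries, and p-values measure the spread between these libraries.

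Each of the 17 libraries was hybridised to 1 array, with 42990 spots besides controls. Levels are log2 signals after subtraction of the median of the array, so that 0 is the median probe of the array, and no probe is compared with another in level. Between 66.2% and 82.8% of the probes of an array were well above background, and no spot was saturated. Of the C2 arrays, replicates 1 and 5 were close to each other, as were replicates 3 and 4 (SD of their differences over valid probes 0.444 and 0.512). The 2 pairs were apart from each other (1.25 to 1.27), and replicate 2 was apart from both (1.05 to 1.25). The arrays lay on 6 slides, each with 1 NC1 and 1 C1 array and 5 of them with 1 C2 array, and were scanned on 2 days. All 9 cumulus and granulosa cell markers were above background on all arrays, and 5 of them (FSHR, AMH, FOXL2, CYP19A1 and INHBB) fell at C2 in comparison to C1, while 4 of 4 valid markers of the expanded cumulus rose (TNFAIP6 by 6.63 on the log2 scale). Markers of other cells moved with the stage too. Signal of oocyte markers, summed on the linear scale in multiples of the array median, was 52.8 to 124.4 at NC1, 5.00 to 47.5 at C1 and 3.31 to 7.80 at C2, with 4 of the 8 markers with a probe not above background on any C2 array. The summed signal of leukocyte markers was 5.09 to 13.5, 3.40 to 5.43 and 3.58 to 27.0 in NC1, C1 and C2, and that of endothelial markers 1.21 to 2.62, 1.12 to 1.52 and 2.93 to 11.4. Theca and stroma markers summed to 163 to 299, 191 to 296 and 282 to 601. Red blood cell markers summed to 27.6 to 129, 72.5 to 258 and 2.20 to 51.1. The markers within a list did not all move alike. Among the endothelial markers KDR rose at C2 (3.58 from C1), whereas TEK was lower (-0.78 from C1, -1.61 from NC1). Among the red blood cell markers HBA fell (-4.01 from C1), whereas HBB, without a valid probe, had means of -3.33 at C1 and -2.76 at C2. The part of these cells in the results below was not tested.

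A probe was valid when it was present on 80% or more of the arrays in every stage. Of the 33 members, 30 had a valid probe, and EHHADH, ETFDH and PPARA had none. The stages were compared with limma over all 13865 valid probes, and a gene was called at a Benjamini-Hochberg adjusted p under 0.01. Every adjusted p below is from this fit unless another is named. At C2 stage 10 of the 30 members rose over C1 and 4 fell, which is 46.7% of them, while 28.1% of all valid probes were called (15.3% rose and 12.8% fell). Set against NC1, 8 members rose and 5 fell, 43.3%, again beside 28.1% of all valid probes (15.5% rose and 12.6% fell). These 2 comparisons share the C2 arrays. Between C1 and NC1 no member was called by limma, where 0.0577% of the valid probes were, and 3 members had an unadjusted p under 0.05, where 9.84% of the probes did. The change from C1 had no common direction, with a median log2 difference of 0.03 over the members and 0.02 over all valid probes. Its size without sign had a median of 0.80 over the members and of 0.53 over all valid probes. As these are bulk samples, fewer cells of a type and less RNA per cell cannot be told apart.

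**Figure D1:**
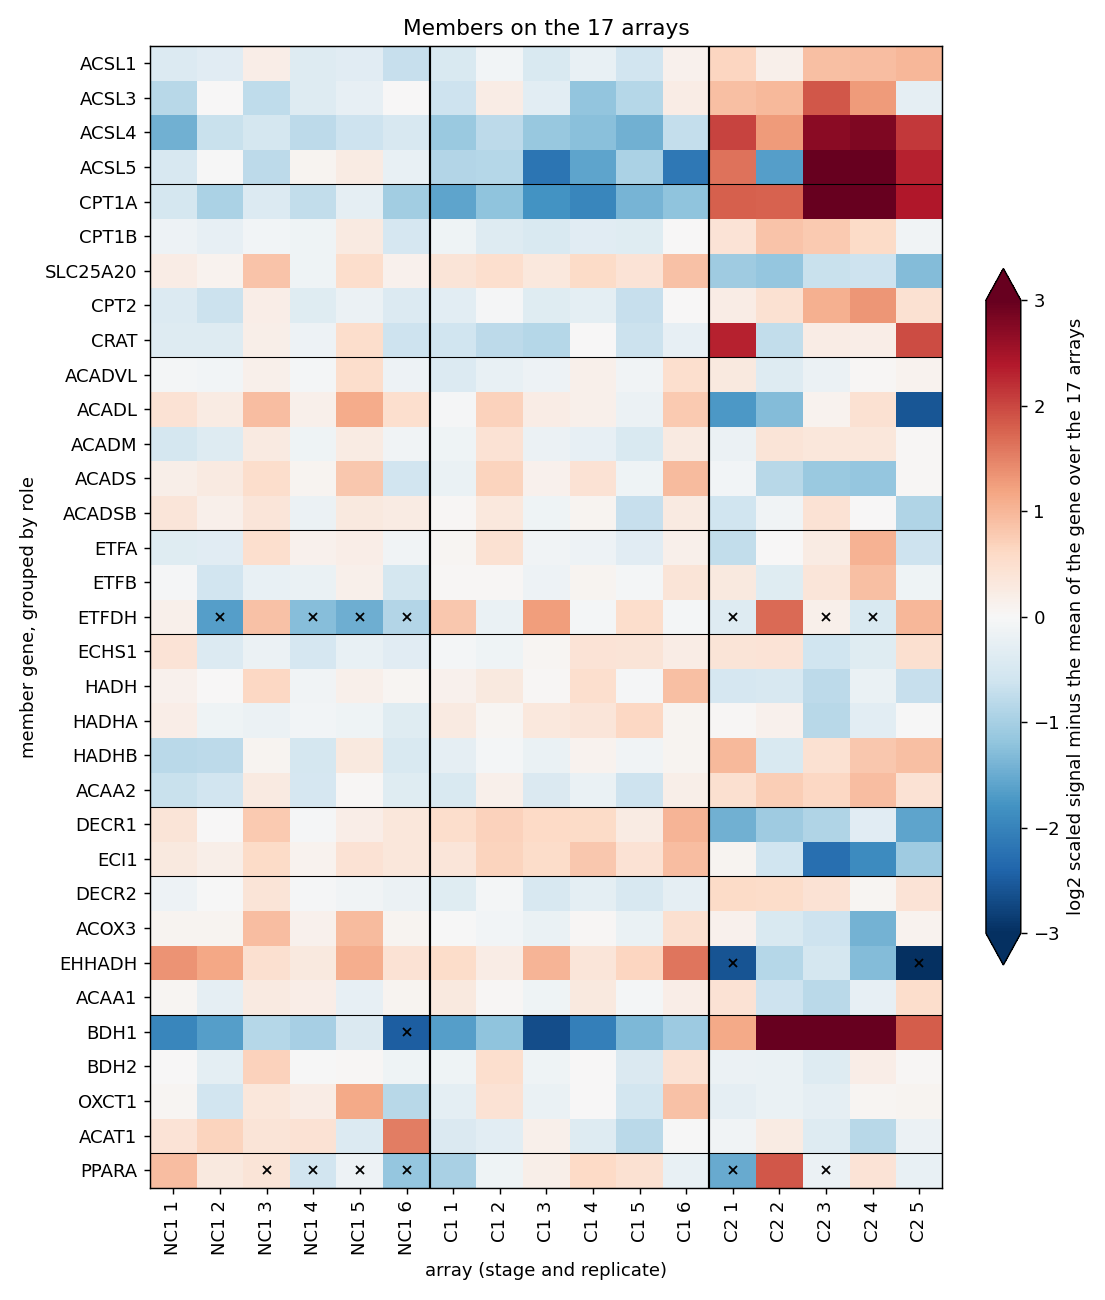
Heat map of the 33 members (rows, grouped by role) on the 17 arrays (columns). Colour is the log2 scaled signal minus the mean of the gene over the 17 arrays, cut at 3 on either side, and crosses mark arrays where the probe was not well above background. ACSL4, CPT1A and BDH1 are high on all 5 C2 arrays, and SLC25A20, DECR1 and EHHADH are low there.

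By step of the pathway, all 4 member synthetases and 3 of the 5 carnitine genes rose from C1 to C2. Another carnitine gene, SLC25A20, fell. Beside these counts, 15.3% of all valid probes rose and 12.8% fell. Both mitochondrial auxiliary enzymes of unsaturated fatty acids fell, while the probe named for the peroxisomal DECR2 rose. None of the 5 acyl-CoA dehydrogenases and neither valid subunit of the electron transfer flavoprotein was called from C1. These groups are small, and differences between them were not tested. All 5 C2 arrays lay above all 6 C1 arrays for 7 of the 30 members and below them for 4. Among all valid probes, 21.6% had C2 and C1 arrays that did not overlap (10.7% above and 11% below). The C2 arrays lay above all NC1 arrays for 5 members and below them for 4, beside 20.9% of the valid probes (10.6% above and 10.3% below).

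**Figure D2:**
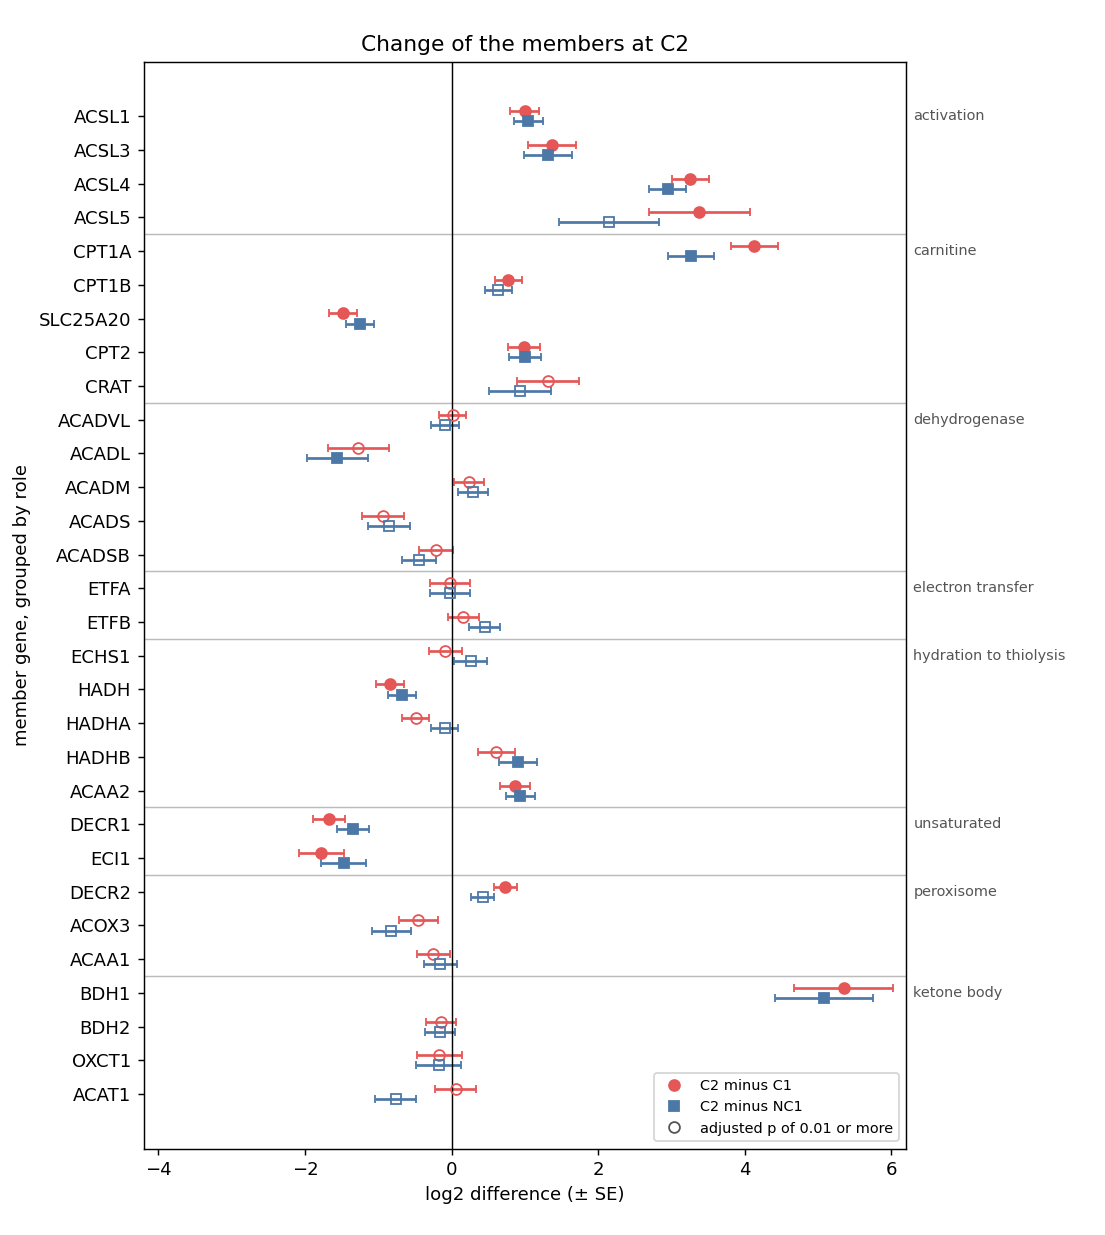
Log2 differences of C2 from C1 (circles) and from NC1 (squares) with the SE of the fit, for the 30 members with a valid probe, grouped by role. Filled symbols have an adjusted p under 0.01, and the largest rise, from C1, is that of BDH1 with 5.35.

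BDH1, the mitochondrial hydroxybutyrate dehydrogenase that interconverts the ketone bodies hydroxybutyrate and acetoacetate, was the most strongly up-regulated member. HADH, the mitochondrial hydroxyacyl-CoA dehydrogenase for short and medium chains, and EHHADH, the peroxisomal bifunctional enzyme with hydratase and dehydrogenase activity, were both lower at C2. The probes of these 3 genes and of CPT1A and ACSL4, the other members with a change of more than 3 on the log2 scale on non-overlapping arrays, are shown by their first 30 of 60 bases as the array table gives them. The probes were not placed on transcripts.
BDH1: gcatttttggcccaaagaggatatgtgaat
HADH: tttatgtacagcctgcctgtagctgtcact
EHHADH: ttcaacagatcctcattgttcatccctaag
CPT1A: gtctgaatttgttatgttggactggccatt
ACSL4: gttctggtttttaagtttgcactcgaatct
No base is marked in these lines, and no genome position is given, since the array files name no genome build.

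At NC1, the log2 scaled signal of BDH1 ranged from -2.84 to -0.80 with a median of -1.68. At C1, it ranged from -3.01 to -1.44 with a median of -1.85. On the C2 arrays, replicates 1 to 5, it was 0.78, 5.15, 4.27, 4.97 and 1.45. All C2 arrays were above all arrays of the other stages, and replicates 1 and 5 were clearly below the other three. The difference of C2 from C1 was 5.35 ± 0.67 (SE) with an adjusted p of 4.96e-06, or 40.7-fold, and that from NC1 was 5.08 ± 0.67 with an adjusted p of 9.16e-06. The exact 2-sided permutation test of the means had p = 0.00433 in both comparisons, the smallest that 5 arrays against 6 allow. As BDH1 was singled out with earlier results of these data known, this p is a description and no independent support. On each of the 5 slides with a C2 array, BDH1 was higher at C2 than at C1, by 2.22 to 7.98, and the difference was 4.18 within the first scan day and 6.95 within the second. With the slide as a block it was 5.28 with an adjusted p of 9.48e-05. With unequal spreads allowed between the stages, an alternative added with the data in view, the adjusted p was 0.0205 from C1 and 0.0222 from NC1. Over the alternatives other than leaving out arrays, the difference of BDH1 ranged from 3.94 to 5.65 from C1 and from 3.66 to 5.38 from NC1. The size of the fold change thus depends on the processing. The probe was well above background on 5 of the 6 NC1 arrays and on all C1 and C2 arrays.

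HADH moved much less, and its arrays were close together. Its log2 scaled signal was 1.25 to 1.96 (median 1.42) at NC1 and 1.31 to 2.23 (median 1.54) at C1. On C2 replicates 1 to 5 it was 0.84, 0.86, 0.55, 1.15 and 0.64. All C2 arrays were thus below all arrays of both earlier stages, with replicate 4 nearest to them. The difference from C1 was -0.83 ± 0.19 (SE) with an adjusted p of 0.00187, and the difference from NC1 was -0.68 ± 0.19 with an adjusted p of 0.00834. The exact permutation test gave p = 0.00433 in both comparisons, with the same limit as for BDH1. HADH was lower at C2 on all 5 slides, by between -1.40 and -0.22 from C1. With unequal spreads allowed, neither difference of HADH was called (adjusted p of 0.0104 from C1 and 0.0113 from NC1). With the slide as a block, the difference from C1 had an adjusted p of 0.00612, while that from NC1 was -0.69 with an adjusted p of 0.0187 and lost it. When each array was left out in turn, the adjusted p of the difference from NC1 ranged from 0.00398 to 0.0244, and the call was lost in 12 of 17 cases.

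The EHHADH probe did not pass the filter of 80% of the arrays in each stage, because it was well above background on 3 of the 5 C2 arrays, while it was above background on all NC1 and C1 arrays. Its log2 scaled signal ranged from -1.78 to -0.73 (median -1.29) at NC1 and from -1.85 to -0.46 (median -1.48) at C1. C2 replicates 1 to 5 had -4.65, -2.94, -2.60, -3.38 and -5.98, and replicates 1 and 5 were those not above background. All C2 arrays were below all arrays of the other stages. The differences are given as a description with no test, since the probe enters a fit over the probes present in 2 of 3 stages through the stages where it is high and 2 of the C2 values are not above background. The difference of the means was -2.57 from C1 and -2.64 from NC1, and with normexp background correction these were -0.60 and -0.78. On the 5 slides the difference from C1 lay between -4.45 and -0.90. A second probe, A_73_109910, which carries the current gene ID of EHHADH, was above background on 2 of 6 NC1 arrays, 6 of 6 C1 arrays and 0 of 5 C2 arrays. The mean of its log2 signals at C2 was 3.51-fold lower than in C1 cells. This value uses the signals of the probe at C2 as they are, although none was above background, and it is a description rather than a bound.

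**Figure D3:**
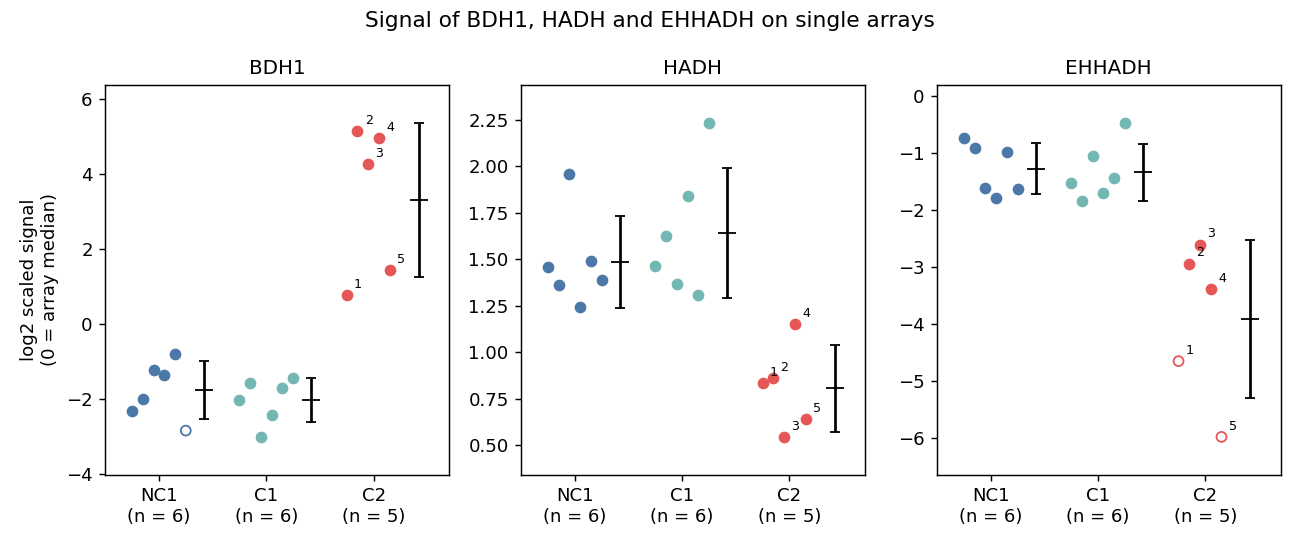
Log2 scaled signal (y axis, 0 is the array median) of BDH1, HADH and EHHADH on single arrays by stage, with the mean and SD beside the points. Open points were not well above background and the numbers are the C2 replicates. The C2 arrays do not overlap with the other stages in any panel, and C2 replicates 1 and 5 are the lowest for BDH1 (0.78 and 1.45) and for EHHADH (-4.65 and -5.98).

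All 4 acyl-CoA synthetases among the members, which activate long-chain fatty acids, rose from C1 to C2, and 3 of them rose from NC1. ACSL6, a further synthetase of this family that is not a member, was on the lower side, with differences of -2.24 ± 0.78 (SE) from C1 (adjusted p of 0.0282) and -2.27 ± 0.78 from NC1 (adjusted p of 0.0269), neither of them called. For ACSL4, which favours arachidonic acid and other polyunsaturated fatty acids, the signal was 4.37 to 5.32 (median 5.17) at NC1, 4.38 to 5.10 (median 4.69) at C1, and 7.84, 7.09, 8.51, 8.62 and 7.93 on C2 replicates 1 to 5. All C2 arrays were far above all others. The difference from C1 was 3.26 ± 0.25 (SE; adjusted p of 1.63e-08), or 9.57-fold, and that from NC1 was 2.95 ± 0.25 (adjusted p of 5.92e-08).
ACSL1, a main synthetase of liver, fat and muscle, rose by 1.00 ± 0.20 from C1 (adjusted p of 0.000526) and by 1.05 ± 0.20 from NC1 (adjusted p of 0.000346). Its C2 arrays were above all C1 arrays, and 4 of 5 were above all NC1 arrays. ACSL3, a synthetase of the endoplasmic reticulum and lipid droplets, rose by 1.37 ± 0.33 from C1 (adjusted p of 0.0029) and by 1.32 ± 0.33 from NC1 (adjusted p of 0.00383). C2 replicate 5 lay within the range of the earlier stages, and without C2 replicate 3 the call from C1 was lost, with an adjusted p of 0.0102. The call from NC1 was lost without NC1 replicate 1, C2 replicate 3 or C2 replicate 4, with adjusted p of at most 0.0133. A second ACSL3 probe was not valid.
ACSL5, a synthetase of mitochondria and the endoplasmic reticulum, varied most among the C2 arrays, with 1.72, -1.56, 4.28, 3.36 and 2.40 on replicates 1 to 5. Its signal was -0.70 to 0.33 (median -0.03) at NC1 and -2.10 to -0.76 (median -1.17) at C1. Replicate 2 was within the range of C1 and the other four C2 arrays were above all others. The difference from C1 was 3.38 ± 0.68 (adjusted p of 0.00068). The difference from NC1 was 2.15 ± 0.68 with an adjusted p of 0.0177 and was not called, but without C2 replicate 2 it was 3.04 and was called.

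Of the carnitine genes, CPT1A, the liver form of the carnitine palmitoyltransferase of the outer membrane, had the largest change. Its signal was 2.67 to 3.44 (median 3.08) at NC1, 1.76 to 2.51 (median 2.23) at C1, and 5.50, 5.48, 7.02, 7.51 and 6.11 on C2 replicates 1 to 5. Every C2 array was above all arrays of both other stages, and replicates 3 and 4 were the highest. The difference was 4.13 ± 0.32 (SE) from C1 (adjusted p of 1.40e-08), or 17.5-fold, and 3.27 ± 0.32 from NC1 (adjusted p of 2.50e-07). On the 5 slides it was 2.99 to 5.59 from C1.
CPT1B, the muscle form of the same enzyme, rose by 0.77 ± 0.19 from C1 (adjusted p of 0.00283) and was 0.64 ± 0.19 above NC1 (adjusted p of 0.0104, not called). With the slide as a block the difference from C1 was 0.73 with an adjusted p of 0.0153, and the call was lost. CPT2, the transferase of the inner membrane, rose by 0.99 ± 0.22 from C1 (adjusted p of 0.00127) and by 1.00 ± 0.22 from NC1 (adjusted p of 0.00118), with C2 arrays above all others.
SLC25A20, the carnitine-acylcarnitine translocase that works between CPT1 and CPT2, went the other way. It had 4.85 to 5.84 (median 5.16) at NC1, 5.30 to 5.86 (median 5.44) at C1 and 3.92, 3.82, 4.32, 4.36 and 3.68 on C2 replicates 1 to 5, and no C2 array reached the other stages. The difference was -1.48 ± 0.19 from C1 (adjusted p of 8.09e-06) and -1.25 ± 0.19 from NC1 (adjusted p of 5.27e-05). It was lower at C2 on all 5 slides. CRAT, which exchanges short acyl groups between carnitine and coenzyme A, was 1.31 ± 0.42 above C1 (adjusted p of 0.0181) and 0.93 ± 0.42 above NC1 (adjusted p of 0.0859), and neither was called. Its C2 values were 7.06, 4.01, 4.97, 4.93 and 6.70, with replicate 2 within the range of C1. Without C2 replicate 2 both differences were called.

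Of the 5 acyl-CoA dehydrogenases among the members, which begin each round of shortening, none was called from C1. This does not hold for the enzyme class, since of the dehydrogenases outside the members ACAD9, which also serves the assembly of respiratory complex I, fell (-1.04 ± 0.19 SE, adjusted p of 0.000211) and IVD, the isovaleryl-CoA dehydrogenase of leucine breakdown, rose by 1.00 ± 0.23 (adjusted p of 0.00219). ACADVL (very long chains) had means of 7.19 ± 0.25 (SD, n = 6), 7.09 ± 0.33 (n = 6) and 7.10 ± 0.26 (n = 5) at NC1, C1 and C2, and differed by 0.01 ± 0.19 (SE) between C2 and C1 (adjusted p of 0.963). ACADM (medium chains) was 0.24 ± 0.20 higher (adjusted p of 0.363) and ACADSB (short branched chains) -0.21 ± 0.23 (adjusted p of 0.488), with a second ACADSB probe likewise not called. ACADS (short chains) was -0.94 ± 0.29 from C1 (adjusted p of 0.0138) and -0.85 ± 0.29 from NC1 (adjusted p of 0.0242), and both passed the threshold under 75th percentile scaling and quantile normalization.
ACADL, the long-chain enzyme, was lower at C2 than at NC1, with a called difference of -1.56 ± 0.41 (adjusted p of 0.00576), while the difference from C1 was -1.27 ± 0.41 (adjusted p of 0.0198). It had 0.77 to 1.74 at NC1 (median 1.09), 0.46 to 1.40 at C1 (median 0.81) and -1.10, -0.67, 0.73, 1.09 and -1.93 on C2 replicates 1 to 5. Replicates 3 and 4 lay within the range of the earlier stages and the other three below it. Within the scan day of replicates 3 and 4 the difference from NC1 was -0.24, against -2.45 within the other day, and with the slide as a block it was -1.52 with an adjusted p of 0.0147, without a call. The call was also lost in 6 of the 17 cases with 1 array left out, with adjusted p of at most 0.0166. The subunits ETFA and ETFB of the electron transfer flavoprotein differed from C1 by -0.02 ± 0.27 and 0.16 ± 0.21 (adjusted p of 0.954 and 0.571). ETFDH, which passes the electrons on to ubiquinone, was above background on 2 of 6 NC1 arrays, 6 of 6 C1 arrays and 2 of 5 C2 arrays and was not tested, with values from -5.12 to -1.76.

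Among the enzymes from hydration to thiolysis, HADH fell as described above and ACAA2, a mitochondrial thiolase, rose. ACAA2 had 4.57 to 5.51 (median 4.81) at NC1, 4.63 to 5.41 (median 4.93) at C1 and 5.72, 5.98, 5.85, 6.17 and 5.68 on C2 replicates 1 to 5, all above the other stages. The difference was 0.87 ± 0.20 (SE) from C1 (adjusted p of 0.00225) and 0.94 ± 0.20 from NC1 (adjusted p of 0.00123). ECHS1, the short-chain hydratase, differed from C1 by -0.09 ± 0.22 (adjusted p of 0.776). The subunits of the trifunctional protein, which carries out the last 3 reactions for long chains, had differences of opposite sign. HADHA was -0.49 ± 0.18 from C1 (adjusted p of 0.0386) and -0.09 ± 0.18 from NC1 (adjusted p of 0.719), and its second probe was not called either. HADHB was 0.61 ± 0.26 from C1 (adjusted p of 0.063) and was up-regulated from NC1 by 0.91 ± 0.26 (adjusted p of 0.00838). Its C2 values were 0.65, -0.78, 0.12, 0.49 and 0.58, with replicate 2 within the range of NC1, and with the slide as a block the adjusted p from NC1 was 0.0127. The call from NC1 was lost in 14 of the 17 cases with 1 array left out, where the adjusted p reached 0.0247, and under 7 other alternatives, the slide included.

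Both auxiliary enzymes of mitochondrial oxidation of unsaturated fatty acids were down-regulated. DECR1, the mitochondrial dienoyl-CoA reductase, had 4.50 to 5.31 (median 4.79) at NC1, 4.77 to 5.54 (median 5.11) at C1 and 3.09, 3.47, 3.62, 4.18 and 2.94 on C2 replicates 1 to 5. No C2 array overlapped with the other stages. The difference was -1.67 ± 0.22 (SE) from C1 (adjusted p of 7.89e-06) and -1.35 ± 0.22 from NC1 (adjusted p of 8.44e-05). ECI1, which shifts double bonds so that oxidation can go on, had 7.37 to 7.82 (median 7.57) at NC1 and 7.62 to 8.17 (median 7.87) at C1, against 7.32, 6.66, 4.98, 5.37 and 6.18 at C2. All C2 arrays were below, replicate 1 only just and replicates 3 and 4 most. The difference was -1.78 ± 0.31 from C1 (adjusted p of 0.000143) and -1.47 ± 0.31 from NC1 (adjusted p of 0.000864). On the 5 slides, the difference from C1 was -3.08 to -0.85 for ECI1 and -2.45 to -0.93 for DECR1.

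Of the peroxisomal members, the probe named for DECR2, a peroxisomal dienoyl-CoA reductase, rose from C1 by 0.73 ± 0.15 (SE) with an adjusted p of 0.000962. Its C2 arrays had 1.97, 1.94, 1.83, 1.45 and 1.80, all above the C1 range of 0.90 to 1.32, and the difference from NC1 was 0.42 ± 0.15 (adjusted p of 0.0355, not called). ACOX3, an oxidase of branched chains, was -0.45 ± 0.27 from C1 (adjusted p of 0.186) and -0.82 ± 0.27 from NC1 (adjusted p of 0.0194). ACAA1, the peroxisomal thiolase, differed from C1 by -0.25 ± 0.23 (adjusted p of 0.402). Neither was called. EHHADH, which works between ACOX3 and ACAA1, is the member described above whose C2 arrays were all below those of the other stages.

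Of the ketone body genes, BDH1 was the only one of 4 that was called. OXCT1, the transferase that commits acetoacetate to use as fuel, had means of 3.83 ± 0.70 (SD, n = 6), 3.83 ± 0.52 (n = 6) and 3.66 ± 0.18 (n = 5) at NC1, C1 and C2, and differed from C1 by -0.17 ± 0.31 (SE; adjusted p of 0.686). The 2 other OXCT1 probes were above background on at most 2 arrays of a stage. BDH2, a cytosolic enzyme named for hydroxybutyrate dehydrogenase activity, differed by -0.15 ± 0.21 (adjusted p of 0.601). ACAT1, the mitochondrial thiolase that interconverts acetoacetyl-CoA and acetyl-CoA, differed from C1 by 0.06 ± 0.28 (adjusted p of 0.887) and from NC1 by -0.76 ± 0.28 (adjusted p of 0.0367). Its highest value was 1.07 on NC1 replicate 6, and the oocyte markers were also highest at NC1, with no test of the relation between them. PPARA, the nuclear receptor that induces many of these genes in liver, was above background on 2 of 6 NC1, 6 of 6 C1 and 3 of 5 C2 arrays, with values from -4.64 to -1.27, and was not tested.

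Between calf and cow, with immature oocytes in both, no member was called, as given above. The 2 members whose C1 arrays all lay below the NC1 arrays were CPT1A and ACSL5, while 2.1% of all valid probes had arrays that did not overlap in this comparison. For CPT1A the difference was -0.86 ± 0.30 (SE) with an adjusted p of 0.284, and for ACSL5 it was -1.23 ± 0.65 with an adjusted p of 0.572. ACAT1 (-0.82 ± 0.27, adjusted p of 0.226) and HADHA (0.40 ± 0.17, adjusted p of 0.447) were the other members with an unadjusted p under 0.05, with CPT1A. For BDH1 and HADH the difference of C1 from NC1 was -0.27 ± 0.64 and 0.16 ± 0.18, and the exact permutation p was 0.502 and 0.396. For EHHADH, above background on all arrays of both stages, it was -0.06, with an exact permutation p of 0.829. A difference that was not called does not show equal levels.

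The C2 arrays differed among themselves more than those of the other stages. The median SD of the members was 0.33 at NC1, 0.30 at C1 and 0.50 at C2, and 21 of the 30 members (70%) had their largest SD at C2, as had 66.4% of all valid probes. For 15 members, 50% of the 30, replicates 1 and 5 lay together above or below the other three C2 arrays, beside 46.3% of all valid probes. The split is thus about as frequent among the members as on the whole array. Replicates 1 and 5 were lower for BDH1 (mean 1.12 against 4.80 on replicates 2 to 4), ACADL (-1.52 against 0.38) and ETFA (4.45 against 5.56). They were higher for CRAT (6.88 against 4.64), ACADS (6.01 against 5.00), ACAA1 (5.81 against 4.78) and ACOX3 (3.80 against 2.85). These 2 sets of arrays are no groups of the study and were not tested. Replicates 3 and 4 were scanned on the second day and replicates 1, 2 and 5 on the first, and the part of the scan day in this split was not tested. With the close replicates taken as a mean, also added with the data in view, 14 members were called from C1 and 11 from NC1. The share of all valid probes called in this alternative was not counted.

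**Figure D4:**
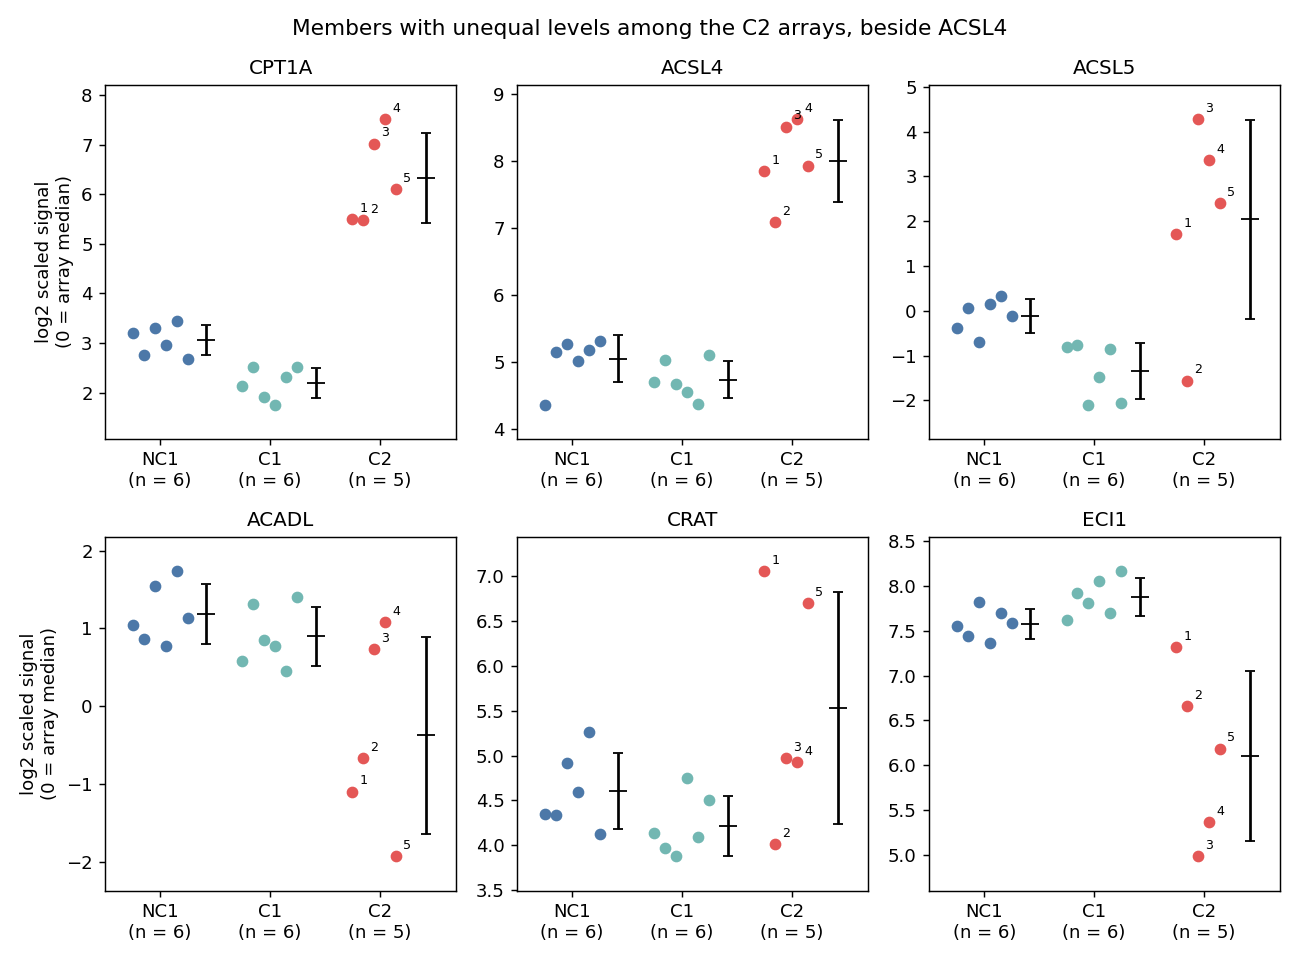
Log2 scaled signal (y axis, 0 is the array median) on single arrays by stage for CPT1A, ACSL4, ACSL5, ACADL, CRAT and ECI1, with mean and SD beside the points and the C2 replicates numbered. ACSL4 and CPT1A are high on every C2 array, C2 replicate 2 is the lowest for ACSL5 (-1.56) and CRAT (4.01), and replicates 3 and 4 are the lowest for ECI1 (4.98 and 5.37).

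Other genes of fatty acid and ketone body metabolism were followed through 4 lists with 66 genes, of which 62 had a probe and 55 a valid one. From C1 to C2, 10 of the 55 rose and 11 fell, with a median log2 difference of 0.06, and in comparison to NC1 10 rose and 7 fell. Of all valid probes, 15.3% rose and 12.8% fell from C1, and 15.5% rose and 12.6% fell from NC1. The counts for single lists below are to be read beside these shares, and no list was tested as a set. None was called between C1 and NC1. Of 21 valid further oxidation enzymes, 3 rose and 7 fell from C1. The falls included ACOX2, a peroxisomal oxidase of branched chains (-1.71 ± 0.22 SE), ECI2, an isomerase of double bonds like ECI1 (-1.68 ± 0.23), ECH1, an auxiliary isomerase (-1.34 ± 0.19), HACL1, of peroxisomal alpha oxidation (-1.23 ± 0.16), and CROT, the peroxisomal carnitine transferase (-0.89 ± 0.21). ACAT2, the cytosolic thiolase that also feeds cholesterol synthesis, rose by 2.43 ± 0.32, and HSD17B10, a mitochondrial dehydrogenase of branched acyl groups and steroids, rose by 1.55 ± 0.27.
Of 15 valid genes of fatty acid uptake, binding and release from lipid droplets, 4 rose and 1 fell. PLIN2, which coats lipid droplets, rose by 3.20 ± 0.36 (adjusted p of 1.69e-06). FABP3, a fatty acid binding protein of heart and muscle, rose by 1.61 ± 0.25, ABHD5, the activator of the triglyceride lipase, by 1.51 ± 0.25, and SLC27A4, a fatty acid transporter, by 0.74 ± 0.21. SLC27A3, of the same family, fell (-3.03 ± 0.61). PNPLA2, the triglyceride lipase itself, was -0.50 ± 0.25 (adjusted p of 0.113) and LIPE 0.37 ± 0.28 (adjusted p of 0.31).
Of 5 valid further ketone body genes, AACS, which makes acetoacetyl-CoA from acetoacetate in the cytosol, rose by 1.21 ± 0.28 (adjusted p of 0.00177). Of 14 valid regulators and synthesis genes, 2 rose and 3 fell. ESRRA, a nuclear receptor of mitochondrial genes, rose by 1.54 ± 0.32 and PRKAA1, a catalytic subunit of AMP-activated kinase, by 0.97 ± 0.22. PPARG, the nuclear receptor of fat storage, fell (-2.20 ± 0.32), as did SIRT3, a mitochondrial deacetylase (-0.92 ± 0.23), and SCD, the stearoyl-CoA desaturase (-0.66 ± 0.19), the last with other probes that were not called. PPARGC1A was -1.46 ± 0.46 (adjusted p of 0.0159), and FASN, the fatty acid synthase, 0.06 ± 0.28 (adjusted p of 0.876).

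**Figure D5:**
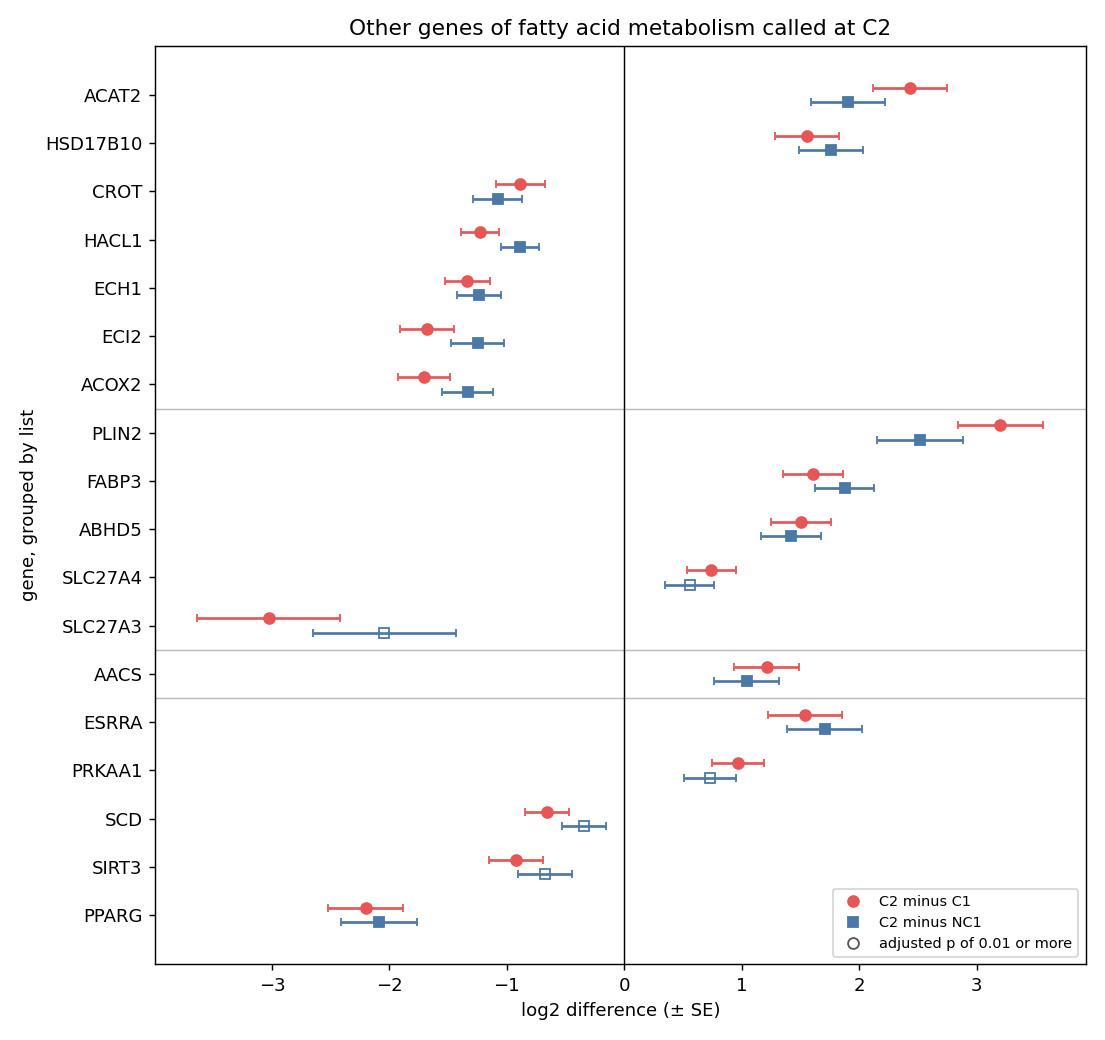
Log2 differences of C2 from C1 (circles) and from NC1 (squares) with the SE of the fit, for 18 genes of the 4 other lists called from C1. They are those described with these lists, and ACAD9 and IVD, described with the dehydrogenases, are not drawn. Lines part the lists of oxidation enzymes, uptake and droplet genes, ketone body genes, and regulators and synthesis. Filled symbols have an adjusted p under 0.01, and PLIN2 (3.20) and SLC27A3 (-3.03) have the largest rise and fall from C1.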

How the data were processed

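RNA of cow cumulus cells was measured on 17 Agilent bovine 1-colour arrays (6 NC1, 6 C1, 5 C2), grouped by the stage in the labels. Per the labels, the deposited intensity of each spot was written on a linear scale by Agilent Feature Extraction 10.5.1.1 after background subtraction and without scaling between arrays. A second deposited table holds log2 values that the authors scaled by the array median and kept for probes present in 2 of 3 stages, and for each array it equals the values used here but for a constant of 7.19 to 7.20. The processed signals of a probe's spots, without non-uniform and outlying spots, were averaged as log2 and the array median was subtracted. A probe was present when at least 50% of its spots were well above background, uniform and unsaturated. Stages were fitted together in limma 3.58.1 (R 4.3.3, lmFit and eBayes), with Benjamini-Hochberg adjustment over all valid probes. On simulated data with these 13865 probes, the fit recovered 88% of falls and 82% of rises of 2 on the log2 scale between C2 and C1, 28% and 32% of those of 1, and made 2 false calls. In the simulation a probe had the same spread in all stages, while the median SD of the valid probes here was 0.34, 0.33 and 0.50 at NC1, C1 and C2. Only 50 probes were changed for each size, a far smaller share than the 28.1% called here. These rates may therefore not hold for the real arrays. Exact permutation tests were 2-sided. Errors are the SD between arrays of a stage or the SE of the fit, and precision is limited by how many arrays there are.

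The members, the other gene lists and the rule for names were chosen with earlier results of these data known. Every member is named, and from each other list mainly genes past the threshold, at most 8, and some genes of these lists are not reported here. ACSL6, ACAD9 and IVD were named after their values were seen. A gene with several probes is given by its valid probe with the highest mean. Alternatives were 75th percentile scaling, quantile normalization, normexp (offset 50), the deposited table, other filters, all spots, a plain one-factor test, array weights, slide, scan day and replicate number as terms, single arrays left out, and means over probes. Averaging close C2 replicates and unequal spreads were added after the values were seen. Same-numbered arrays of different stages did not deviate together, with correlations over 0.1 in 4 of 16 pairs (range -0.32 to 0.25), so the numbers were not taken as pairs. Symbols follow a RefSeq gene table of the cow. Calculations used Python 3.11.15 with pandas 2.3.3, numpy 2.4.6 and scipy 1.17.1. The other species of the study are not analysed here.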

Additional observations from a re-analysis of the deposited data

Results flagged for a closer look

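The values of the 33 members were examined in each of the 3 stages for an array far from the rest of its stage, that is, one whose gap to its nearest neighbour takes up an unusual share of the range of the stage. Of the 99 groups of arrays, 6 were marked in this way, and chance marks about 1 in 20 groups. No C2 array was among them. On NC1 replicate 3, the log2 scaled signal was the highest of the stage for BDH2 (6.57, next 5.92), DECR2 (1.78, next 1.37) and HADH (1.96, next 1.49). On NC1 replicate 1, ACSL4 was the lowest (4.37, next 5.02) and ECHS1 the highest (2.43, next 1.85). On C1 replicate 6, ACOX3 was the highest (4.15, next 3.70). All 6 signals were well above background, and no cause was tested.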

How the results depend on the processing

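Of the 27 called differences of members, 12 kept their direction and call under all alternatives, namely those of ACSL1, ACSL4, CPT1A, SLC25A20 and ACAA2 from both other stages and those of DECR1 and DECR2 from C1. No called difference changed direction under any alternative. The median over all probes moved by more than 0.1 with 75th percentile scaling (-0.13 from C1, -0.15 from NC1) and with normexp (0.20 for C2 against NC1, 0.26 for C1 against NC1). The balance of rises and falls from NC1 moved too. With 75th percentile scaling or quantile normalization 8 members rose and 7 fell, and with normexp 10 rose and 3 fell. Of the other pathway genes, 9 rose and 12 fell with 75th percentile scaling, 9 and 11 with quantile normalization, and 11 and 5 with normexp. Among differences not called, 25 of 63 changed sign in at least 1 alternative. Unequal spreads gave 7 members from C1 and 5 from NC1 in place of 14 and 13, and 7 and 5 other pathway genes in place of 21 and 17, with adjusted p above 0.01 for BDH1 (5.35 from C1, 5.08 from NC1) and HADH (-0.83, -0.68). The difference of HADH from NC1 also lost its call with normexp (-0.41), without a filter (-0.68), with array weights (-0.63), with the slide (-0.69) or scan day (-0.68) as a term and with close C2 replicates averaged (-0.67), and normexp moved the untested differences of EHHADH from -2.57 to -0.60 from C1 and from -2.64 to -0.78 from NC1. With the replicate number as a block, 12 members were called from C1 and 10 from NC1, and HADH lost both calls (-0.78 and -0.63), although the numbers did not pair the arrays. When single arrays were left out, between 14 and 16 members were called from C1, 10 and 13 from NC1 and 0 between C1 and NC1, and between 18 and 22 and between 14 and 20 other pathway genes. In these runs the difference of BDH1 ranged from 4.89 to 5.98 from C1 and from 4.62 to 5.71 from NC1, that of HADH from -0.92 to -0.71 and from -0.76 to -0.58, and that of EHHADH from -2.90 to -2.06 and from -2.96 to -2.12. The share of all valid probes called was not counted under these alternatives. The counts of genes called therefore do not show whether the members kept or lost their distance from that share. The causes were not tested. Signal over background limits EHHADH, ETFDH and PPARA, which had no valid probe.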
